A study of Homo sapiens with 12 samples.

Results

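FGF1 and FGF2 are the acidic and the basic fibroblast growth factor. They are 2 of the 199 genes counted on the nCounter Stem Cell Panel in the human hepatic stellate cell line LX-2, an immortalised line of activated stellate cells. The pair was chosen by gene name after the counts of all genes had been examined, because FGF1 had been called at 48 h, with FGF2 as the other fibroblast growth factor counted above background. The values that led to the choice (levels, 48 h against 24 h, and miR-25 against control) are therefore given for both genes as a description, without a test. One more family member on the panel, FGF4, was at background.

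The 12 samples were LX-2 cells grown in medium with 2% fetal calf serum and transiently transfected with 10 pmol/ml of a miR-25 mimic or of a non-specific control mimic based on a Caenorhabditis elegans sequence. RNA was taken 24 h or 48 h later, with 3 replicates in each of the 4 groups. The miR-25 and the control sample of a replicate formed a pair with 1 recorded transfection efficiency, measured as the fraction of fluorescein-positive cells in a parallel well and lying between 0.42 and 0.81. Each sample thus mixed transfected and untransfected cells. Relative miR-25 expression, as the labels give it, was 62.34 to 350.13 times the control at 24 h and 347.45 to 681.22 times at 48 h. The study's methods describe its data in general as independent experiments, and each replicate had its own transfection efficiency. The labels do not say how the cultures of these replicates were related, and p-values measure the spread between these samples. No sample was left untransfected, so all groups share the transfection itself.

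Fibroblast growth factors are heparin-binding ligands of receptor tyrosine kinases. FGF1 and FGF2 lack a classical secretion signal, leave cells by an unconventional route and, with heparan sulphate as a cofactor, activate FGF receptors, which signal through the MAP kinase, PI3 kinase and phospholipase C pathways. FGF1 binds all FGF receptors. Both are mitogens for mesenchymal cells, and FGF2 is known to stimulate proliferation of hepatic stellate cells. FGFR1, the FGF receptor on this panel, is a main receptor of both.

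On this platform a capture and a reporter probe hybridise side by side to a stretch of 100 bases in the mRNA, and each bound reporter is counted once without amplification. The stretches that stand for the 2 genes are shown because every count of FGF1 (NM_033136.1) and FGF2 (NM_002006.4) below is a count of molecules that hold them. They are written 5′ to 3′ as the study's panel sheet lists them, with capitals for the longest run of bases that the 2 stretches share.
FGF1 target: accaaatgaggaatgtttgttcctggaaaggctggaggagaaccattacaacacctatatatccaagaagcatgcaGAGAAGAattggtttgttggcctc
FGF2 target: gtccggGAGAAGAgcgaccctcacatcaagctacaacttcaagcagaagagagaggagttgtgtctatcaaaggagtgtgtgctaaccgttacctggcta
The shared run was 7 bases long, at bases 77 to 83 of the FGF1 stretch and 7 to 13 of the FGF2 stretch. Against the other 192 stretches on the panel sheet, the longest run shared by FGF1 was 10 bases, with AXIN1, CCND1 and RBPJ, and that of FGF2 was 11 bases, with KAT2A. G and C made up 43% of the FGF1 stretch and 50% of the FGF2 stretch.

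The transfected agent, miR-25, was supplied as a mimic. The mature human miR-25-3p of RefSeq lies on GRCh38.p14 at chr7:100093571-100093592 on the minus strand and is shown with its seed, bases 2 to 8, in capitals.
hsa-miR-25-3p: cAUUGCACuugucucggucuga
The DNA letters complementary to the seed are GTGCAAT. They were in neither stretch, on the strand of the mRNA, and in 0 of the 193 stretches on the sheet. These stretches are short parts of the transcripts, and the rest of either mRNA was not searched.

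Both genes were well above the background of the negative control probes in all 12 samples. FGF1 had 325 to 2613 counts, 44.2 to 236 times the background level of its sample (the mean of the 8 negative probes plus 2 SD), and FGF2 had 1365 to 4751 counts, 194 to 423 times. FGF4, which is known from pluripotent and embryonic cells, had 1 to 10 counts and was above background in 0 of 12 samples. The counts of all panel genes summed to 321243 to 409581 in a sample at 24 h and to 107377 to 200821 at 48 h, so the median total at 48 h was 41.5% of that at 24 h. The median sum of the positive control probes at 48 h was 66.9% of that at 24 h. Levels below are counts per 100000 counts of all panel genes in the same sample. They are relative to the panel, from the same 50 ng of RNA per sample, and because each gene has its own probes no level is compared between genes. In such bulk samples, fewer cells with a transcript and less of it per cell cannot be told apart. Of the 14 markers fixed for epithelial, T, neural and pluripotent cells, 1 (POU5F1) was above background in all 12 samples and 5 in none, with at most 54 counts. The rest were above it in some samples, among them CD4 in 11, GJB1 in 10, and SOX1 and NANOG in 8 each. The stellate cell markers COL1A1, CDH2, CD44 and CXCL12 were above background in all 12. Both samples of replicate 1 at 48 h stood apart from the other 48 h samples, so the time comparisons of FGF1 and FGF2 are given with and without them.

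FGF1 was lower at 48 h than at 24 h in both treatments, and at 48 h it was higher with miR-25 than with control. In control samples at 24 h its level was 521, 668 and 593 per 100000 in replicates 1, 2 and 3. With miR-25 at 24 h it was 495, 671 and 596. The values of the 2 groups lay over each other at 24 h, and replicate 1 was the lowest and replicate 2 the highest in each. At 48 h the control samples had 303, 282 and 335 per 100000 and the miR-25 samples 482, 346 and 391. Every 48 h sample was thus below every 24 h sample, and the lowest miR-25 sample at 48 h, 346, was above the highest control, 335, by a narrow margin. The means were 594 ± 73.5 (SD, n = 3) for control and 587 ± 88.5 (n = 3) for miR-25 at 24 h, then 307 ± 26.7 (n = 3) and 406 ± 69.5 (n = 3) at 48 h.

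FGF2 differed little between the groups in its mean, and its spread grew between the time points. At 24 h the controls had 1175, 1242 and 1257 per 100000 in replicates 1, 2 and 3, and the miR-25 samples 1126, 1202 and 1189. At 48 h the controls had 1932, 970 and 1183, and the miR-25 samples 1698, 1009 and 1194. The 2 highest values of all 12 samples were those of replicate 1 at 48 h, and the 2 lowest those of replicate 2 at 48 h, so the order of the samples at 48 h followed the replicate and not the treatment. The coefficient of variation between replicates was 3.56% in control and 3.46% in miR-25 samples at 24 h and 37.1% and 27.4% at 48 h. For FGF1 it was 12.4% and 15.1% at 24 h and 8.71% and 17.1% at 48 h.

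**Figure D1:**
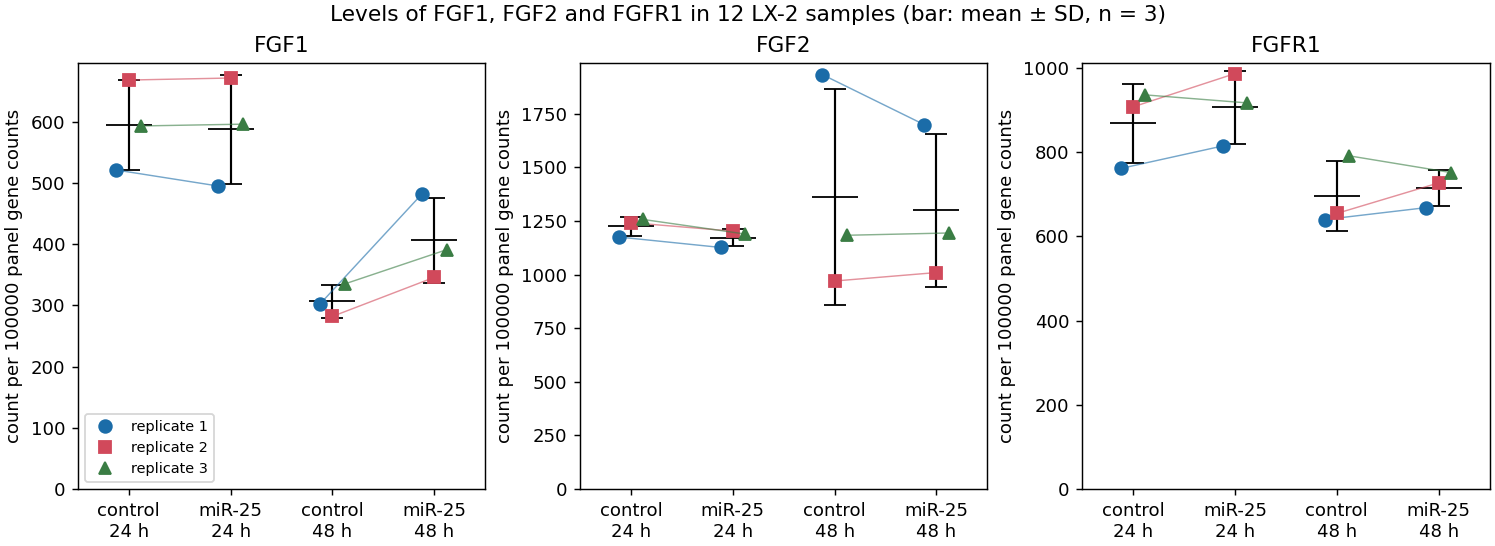
Level of FGF1, FGF2 and the receptor FGFR1 (vertical axis of each panel, counts per 100000 panel gene counts, from 0) in the 12 samples by treatment and time. Symbols are replicates, thin lines join the control and the miR-25 sample of a pair, and bars show mean ± SD of 3 samples. All 6 FGF1 values at 48 h, 282 to 482, lie below all 6 at 24 h, 495 to 671, while the FGF2 values at 48 h, 970 to 1932, spread around those at 24 h.

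Within the transfection pairs, the ratio of miR-25 to control for FGF1 at 24 h was 0.950, 1.00 and 1.00 in replicates 1, 2 and 3, with a mean of 0.987 ± 0.0318 (SD, n = 3 pairs). At 48 h it was 1.59, 1.23 and 1.17, with a mean of 1.33 ± 0.231 (n = 3 pairs). The exact 95% interval from counting error alone was 1.40 to 1.82 in replicate 1, 1.08 to 1.40 in replicate 2 and 1.05 to 1.30 in replicate 3. All 3 intervals at 48 h lay above 1, and all 3 at 24 h held 1. This describes the values that led to the choice and is no test. Replicates of a group differed by more than counting error, which the intervals leave out. Between 2 replicates, chi-square per degree of freedom over the genes tested was 2.52 to 73.1, where counting error alone gives about 1. The pair with the largest FGF1 ratio, replicate 1, had the lowest transfection efficiency, 0.42, and the lowest relative miR-25 expression at 48 h, 347.45. Replicates 2 and 3 had efficiencies of 0.61 and 0.65 and relative expression of 482.36 and 681.22. The largest ratio also came from the control sample with the fewest counts, 325 for FGF1 and 107377 in all. The part of depth in the size of this ratio was not tested, and without replicate 1 the mean log2 ratio at 48 h was 0.26, against 0.40 ± 0.24 (SD, n = 3) with it.

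FGF2 was lower with miR-25 in 3 of 3 pairs at 24 h, by a few percent. Its ratios were 0.959, 0.968 and 0.946, with a mean of 0.958 ± 0.0112 (SD, n = 3 pairs), and the counting intervals of replicates 1 and 3 lay below 1, while that of replicate 2 was 0.929 to 1.01. Of the 136 genes tested (a mean of at least 20 counts over the 12 samples), 5.88% were lower in all 3 pairs at 24 h. The levels of the 2 groups overlapped, and with samples scaled to the positive controls the 3 ratios ran from 0.920 to 1.11. At 48 h the FGF2 ratio was 0.879, 1.04 and 1.01, with a mean of 0.976 ± 0.0855 (n = 3 pairs), so 2 pairs were higher and 1 lower. In replicate 1, where FGF1 was 1.59 times the control, FGF2 was 0.879 times, with a counting interval of 0.830 to 0.932.

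**Figure D2:**
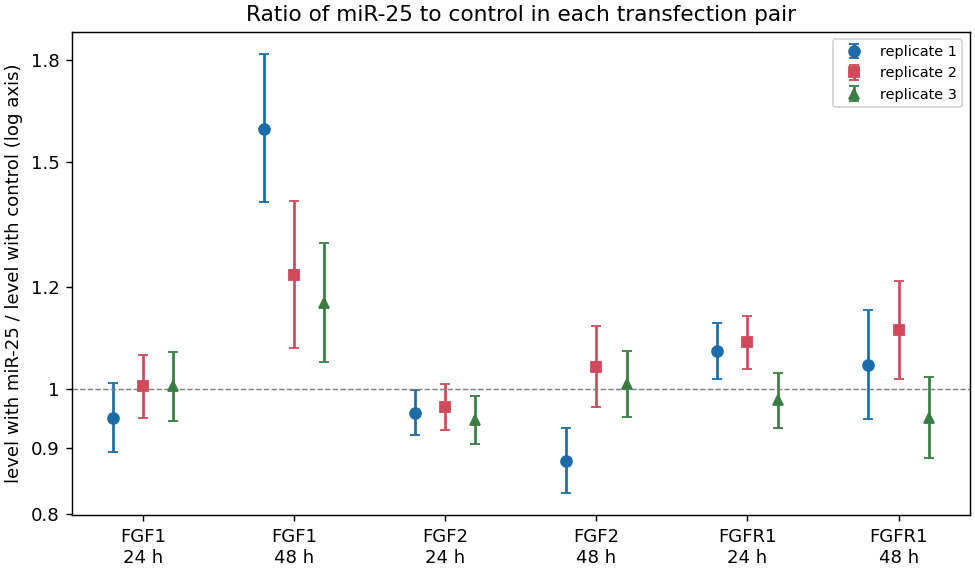
Ratio of the level with miR-25 to the level with control in each of 6 transfection pairs (vertical log axis) for FGF1, FGF2 and FGFR1 at 24 h and 48 h. Error bars are exact 95% intervals that cover counting error only, and the dashed line marks a ratio of 1. The 3 FGF1 pairs at 48 h lie at 1.17 to 1.59. The intervals leave out the spread between samples and are no test of FGF1, which was chosen on these values.

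Set among the other genes, FGF1 stood near the upper end of the miR-25 comparison at 48 h. In edgeR's quasi-likelihood fit its log2 fold change was 0.38 (standard error, SE, 0.075), 3rd from the highest of 136, where the median gene had -0.01. At 24 h it was -0.02 (SE 0.056), against a median of 0.03. The log2 fold change at 48 h minus that at 24 h was 0.40 (SE 0.093), the highest of 136 genes. FGF2 had log2 fold changes of -0.06 (SE 0.043) at 24 h, 9th from the lowest, and of -0.04 (SE 0.047) at 48 h. At 48 h, 16.9% of the genes were higher in all 3 pairs and 3.68% had miR-25 and control groups that did not overlap with miR-25 the higher. The call that led to the choice of FGF1 was 1 of 136 genes at 48 h, or 0.735%. It was not made without the replicate block or without 24 h replicate 3, where 0 genes were called. Limma did not make it either, though it called 1 gene at 48 h, higher with miR-25. At 24 h the fit called 0% of the genes, where 9 of 136 had an unadjusted p under 0.05 and neither DESeq2 nor limma made a call. Since FGF1 was chosen from this comparison, these shares are printed for scale only.

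The lower level of FGF1 at 48 h was among the largest differences with time on the panel. The 24 h and 48 h samples also differed in recorded transfection efficiency, 0.59 to 0.81 against 0.42 to 0.65, and in total counts. In this and the other comparisons with time, time cannot be told apart from these differences between the sample sets. In control samples the mean at 48 h was 0.516 times that at 24 h, and 0.519 times without replicate 1 at 48 h. In the fit the log2 fold change was -0.95 (SE 0.15), second lowest of 136 after WNT5B, a Wnt ligand named here after its value was seen, which had -1.55. In miR-25 samples the mean at 48 h was 0.692 times that at 24 h, and 0.627 times without replicate 1. There the log2 fold change was -0.53 (SE 0.15), 12th from the lowest. With 48 h below 24 h and no overlap, FGF1 was among 14.0% of the genes in controls and 22.8% in miR-25 samples. Each comparison with time shares its 48 h samples with the comparison of treatments, so the smaller difference with miR-25 and the higher FGF1 at 48 h rest on the same values and are not separate evidence.

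For FGF2 the comparison with time turned on replicate 1. Its mean at 48 h was 1.11 times that at 24 h in both control and miR-25 samples. Without replicate 1 at 48 h it was 0.879 times in controls and 0.939 times with miR-25. The log2 difference went from 0.09 to -0.19 in controls and from 0.12 to -0.09 with miR-25. In the fit FGF2 had a log2 fold change of 0.15 (SE 0.24) in controls and 0.15 (SE 0.24) with miR-25, near the median of all genes tested, 0.13 and 0.09. The 24 h and 48 h groups overlapped in both treatments.

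All directions above are relative to the panel total. Scaling each sample to its positive control probes, which stand for molecules added to every sample, moved the median gene by -0.67 on the log2 scale in controls and by -0.50 with miR-25 from 24 h to 48 h. It moved the median gene by 0.13 at 24 h and 0.31 at 48 h for miR-25 against control. The log2 difference of FGF1 at 48 h against 24 h was then -1.73 in controls and -1.09 with miR-25, which is -1.05 and -0.59 relative to the median gene. Its log2 ratio of miR-25 to control at 48 h was 0.71, which is 0.40 above the median gene. The log2 difference of FGF2 with time turned to -0.68 in controls and -0.44 with miR-25, or -0.01 and 0.06 relative to the median gene, and its log2 ratios of miR-25 to control turned to 0.03 at 24 h and 0.28 at 48 h, or -0.09 and -0.03 relative to it.

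**Figure D3:**
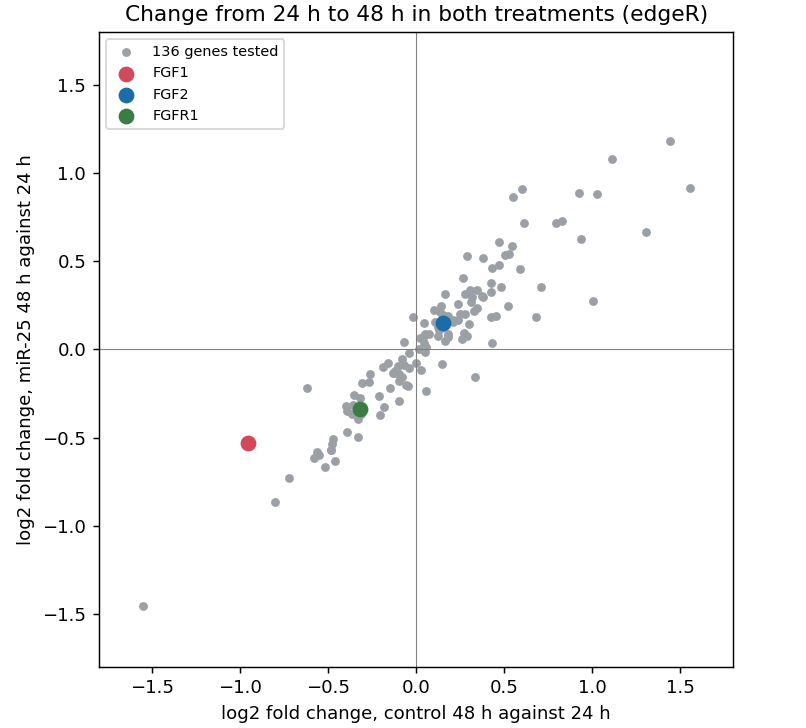
Log2 fold change from 24 h to 48 h in control samples (horizontal axis) and in miR-25 samples (vertical axis) for the 136 genes tested, from edgeR. FGF1, at -0.95 and -0.53, lies to the left of most genes of like height, FGF2 is at 0.15 on both axes, and FGFR1 is at -0.32 and -0.34.

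The ratio of the FGF1 to the FGF2 count within a sample does not depend on how samples are scaled to each other, and is compared here across samples only. In controls it was 0.443, 0.538 and 0.472 at 24 h in replicates 1, 2 and 3, and 0.157, 0.291 and 0.283 at 48 h. With miR-25 it was 0.439, 0.558 and 0.501 at 24 h and 0.284, 0.343 and 0.327 at 48 h. All 6 samples at 48 h were below all 6 at 24 h. At 48 h the ratio was higher with miR-25 in 3 of 3 pairs, but the groups overlapped, since 0.284 in miR-25 replicate 1 was below 0.291 in control replicate 2. The mean was 0.244 ± 0.0753 (SD, n = 3) in controls and 0.318 ± 0.0305 (n = 3) with miR-25 at 48 h.

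The FGF1 to FGFR1 count ratio was 0.685, 0.736 and 0.634 in 24 h controls and 0.608, 0.681 and 0.650 with miR-25. At 48 h it was 0.473, 0.431 and 0.423 in controls and 0.722, 0.476 and 0.520 with miR-25. The miR-25 values at 48 h were all above the control values, with 0.476 against 0.473 as the nearest. The miR-25 sample of replicate 1, at 0.722, was the only 48 h sample within the range of the 24 h samples.

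**Figure D4:**
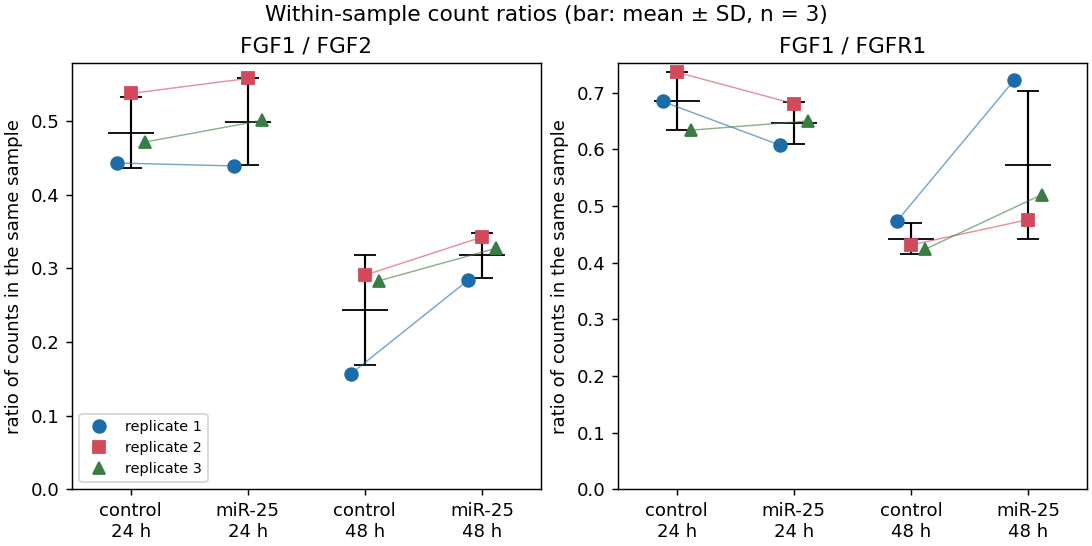
Ratio of the FGF1 count to the FGF2 count (left) and to the FGFR1 count (right) in the same sample, on vertical axes from 0, for the 4 groups. Symbols are replicates joined within a pair, and bars are mean ± SD of 3 samples. FGF1 over FGF2 is 0.439 to 0.558 at 24 h and 0.157 to 0.343 at 48 h.

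FGFR1, the receptor tyrosine kinase that binds both ligands, was well expressed, with 687 to 3839 counts. It was listed as the receptor and was tested, though the list was written with earlier results of these data known. Its level was 761, 907 and 936 per 100000 in 24 h controls, 814, 986 and 917 with miR-25 at 24 h, 640, 654 and 791 in 48 h controls and 668, 727 and 751 with miR-25 at 48 h. The treatment groups overlapped at both times. Its log2 fold change with miR-25 was 0.06 (SE 0.046) at 24 h, with an adjusted p = 0.858 by the quasi-likelihood test of edgeR, and 0.04 at 48 h (SE 0.054, adjusted p = 0.734), higher in 2 of 3 pairs each time. From 24 h to 48 h it was -0.32 (SE 0.12, adjusted p = 0.0853) in controls and -0.34 (SE 0.12, adjusted p = 0.0777) with miR-25. These differences did not pass the threshold of 0.05. Of 16 other settings, 5 passed it in controls, with adjusted p from 0.0153 to 0.283, and 6 with miR-25, from 0.0142 to 0.270. Whether FGF1 and FGFR1 differed in their change with time was not tested.

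CDH2 (N-cadherin), an adhesion molecule that can associate with FGFR1 at the cell surface, was lower at 48 h than at 24 h in miR-25 samples. Its level there was 1727, 1804 and 1818 per 100000 at 24 h and 1421, 1056 and 1216 at 48 h. The log2 fold change was -0.53 (SE 0.15, adjusted p = 0.0412 by edgeR's quasi-likelihood test), and the call was lost in 9 of 16 other settings, with adjusted p from 3.22e-05 to 0.164. In controls it was -0.48 (SE 0.15, adjusted p = 0.0627), and 4 of 16 other settings passed the threshold, with adjusted p from 1.57e-05 to 0.197. With miR-25 against control it was 0.00 (SE 0.042, adjusted p = 0.983) at 24 h and -0.04 (SE 0.047, adjusted p = 0.722) at 48 h. NCAM1, another adhesion partner, had 3 to 48 counts, was above background in 5 of 12 samples and was not tested.

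Of 5 panel genes that FGF receptor signalling is known to turn on through MAP kinase, none passed the test for miR-25 against control at 24 h or 48 h by edgeR. Unadjusted p was under 0.05 for 3 of them at 24 h and 2 at 48 h, against 9 and 17 of the 136 genes tested. DESeq2 called 0 at 24 h and 1, PLAU, at 48 h, and limma called 0 at both times. At 24 h the median log2 fold change of the 5 was 0.12, against 0.03 for all genes tested, and at 48 h it was -0.05 against -0.01. FOSL1, an AP-1 subunit, had 0.14 (SE 0.043, adjusted p = 0.543) at 24 h and 0.12 (SE 0.048, adjusted p = 0.310) at 48 h. At 48 h it was higher in 3 of 3 pairs, as were 16.9% of the genes tested. CCND1, the cell cycle regulator cyclin D1, had 0.12 (SE 0.039, adjusted p = 0.543) at 24 h and 0.03 at 48 h. In 2 of 16 other settings, the fit of the 24 h samples alone and the fit without 48 h replicate 1, FOSL1 and CCND1 were 2 of the 3 genes called at 24 h. Over the 16 settings the adjusted p at 24 h ran from 0.000259 to 0.998 for FOSL1 and from 0.00117 to 0.998 for CCND1. MYC, a growth regulator, was 339, 340 and 346 per 100000 in 24 h controls and 365, 379 and 368 with miR-25. Its log2 fold change at 24 h was 0.12 (SE 0.047, adjusted p = 0.557 by edgeR's quasi-likelihood test). At 48 h it was -0.05 (SE 0.061, adjusted p = 0.734), lower in 2 of 3 pairs, with groups that overlapped.

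PLAU, which encodes the plasminogen activator urokinase, and JUN, an AP-1 subunit, are the other 2 of the 5. PLAU was 779, 528 and 397 per 100000 in 48 h controls and 433, 448 and 376 with miR-25, lower in 3 of 3 pairs, with groups that overlapped. Its log2 fold change at 48 h was -0.39 (SE 0.10, adjusted p = 0.120 by edgeR's quasi-likelihood test). It was -0.16 without 48 h replicate 1, and -0.07 with positive control scaling, where the median gene had 0.31. It passed the threshold in 5 of 16 other settings, with adjusted p from 2.2e-05 to 0.991. JUN had 0.06 at 24 h and -0.09 at 48 h, both with groups that overlapped.

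With time, edgeR called 7.35% of the genes tested in controls and 12.5% in miR-25 samples. None of the 5 targets was called in controls, where 3 had an unadjusted p under 0.05, against 50 of the 136 genes tested, and DESeq2 called 1 (PLAU) and limma 0. In miR-25 samples 1 of the 5, MYC, was called, and 2 had an unadjusted p under 0.05, against 47 of the 136 genes. DESeq2 called MYC and CCND1 in these samples, and limma called MYC. MYC fell there from 365, 379 and 368 per 100000 at 24 h to 277, 323 and 260 at 48 h, with a log2 difference in the fit of -0.37 (SE 0.089, adjusted p = 0.0253 by edgeR's quasi-likelihood test). The call was lost in 5 of 16 other settings, with adjusted p from 0.000604 to 0.164. In controls MYC had -0.20 (SE 0.089, adjusted p = 0.134). CCND1 had -0.80 (SE 0.32, adjusted p = 0.106) in controls and -0.87 (SE 0.32, adjusted p = 0.0813) with miR-25. PLAU had 0.68 (SE 0.19, adjusted p = 0.0502) in controls and 0.18 (SE 0.19, adjusted p = 0.533) with miR-25. With positive control scaling these values turned to -0.14 and -0.37, where the median gene had -0.67 and -0.50. Leaving out replicate 1 at 48 h, the fit called 64 of the 136 genes in controls and 64 in miR-25 samples, so passing was common there. In that setting PLAU had 0.39 in controls (adjusted p = 0.0232 by edgeR's quasi-likelihood test) and 0.16 with miR-25 (adjusted p = 0.284). Without replicate 1 at 48 h, CCND1 passed in both treatments, with adjusted p of 9.07e-05 in controls and 3.33e-05 with miR-25 by edgeR's quasi-likelihood test, and over all 16 settings its adjusted p reached 0.293 and 0.246. FOSL1 and JUN then passed with miR-25 as well, with adjusted p of 0.0198 and 0.00699, which over all 16 settings reached 0.928 and 0.549.

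The 4 other secreted growth factors that were listed, BMP2, BMP3, GDF3 and IGF1, were at or near background. Their counts were 1 to 11, 1 to 13, 1 to 14 and 1 to 9, and none was above background in more than 1 of 12 samples. FGF1 and FGF2 were thus the growth factors on this list with counts that could be compared.

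The genes whose levels ran most like FGF1 over the 12 samples were APC (Pearson r of log2 levels 0.89), a negative regulator of Wnt signalling, TLE1 (0.88), a corepressor, and EP300 (0.87), an acetyltransferase. FGFR1 was 6th, with 0.83, and FGF2 61st, with 0.00. APC was 123 to 167 per 100000 in 24 h controls and 86.7 to 116 in 48 h controls, so the difference with time was part of this likeness. When the mean of each time point was taken off, GLI2 (0.69) and DTX2 (0.67) were among the leading genes, and APC was 18th. With those means left in, GLI2 was 91st (-0.42) and DTX2 59th (0.01). Without the 2 samples of replicate 1 at 48 h, APC was 7th (0.91), EP300 16th (0.86) and TLE1 17th (0.86). With time point means taken off as well, DTX2 was 7th (0.75), GLI2 17th (0.67) and TLE1 103rd (-0.15). GLI2, a Hedgehog transcription factor, had a median level of 242 with miR-25 against 214 in controls at 48 h, and of 186 against 171 at 24 h.

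For FGF2 the leading genes over 12 samples were PRKCI (0.94), an atypical protein kinase C, PSEN2 (0.93), a gamma-secretase subunit, and FZD6 (0.91), a Wnt receptor. With time point means taken off, CDH2 came first with 0.98. The 12-sample values of PRKCI, PSEN2 and FZD6 were raised by replicate 1 at 48 h. PRKCI was 334 to 522 per 100000 in 48 h controls. Without the 2 samples of that replicate its correlation with FGF2 was 0.64 over 10 samples, 21st in rank. PSEN2 then had 0.57 and FZD6 0.47, while CDH2 with time point means taken off kept the first rank with 0.86. In the 24 h samples alone PRKCI had 0.83, FZD6 0.71 and PSEN2 0.31. Without the 2 samples of replicate 1 at 48 h, FGF1 and FGF2 correlated at 0.76, against 0.00 with them. All samples share the panel total as divisor, and the samples of a pair share a transfection, so the points are not independent.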

How the data were processed

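The deposited table held raw counts per probe, from the authors' nCounter Stem Cell Panel hybridisations of 50 ng of RNA (nSolver 3.0 per the labels and the study's methods). The lowest value was 1. The authors' normalised and efficiency-corrected values were not used. Of 199 gene identifiers, 193 were named from the study's panel sheet and 6 from the RefSeq table. The 6 positive and 8 negative control probes stayed out of totals and tests. The files give no genome build, and no gene coordinates are printed.

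The 2 members, the gene lists and the tests were chosen with earlier results of these data known. The text names the members, FGF4, FGFR1, 2 partners of FGFR1, 5 targets of FGF receptor signalling, 4 other growth factors and the 3 genes most correlated with each member, with and without time point means taken off; 1 of these is not reported here. The cell type markers were listed with them. Totals over the panel genes were library sizes. edgeR 4.0.16 (R 4.3.3) fitted quasi-likelihood models to the 136 genes whose counts averaged 20 or more, with Benjamini-Hochberg adjustment over these and a threshold of 0.05. The miR-25 comparisons had the transfection pair as a block, because the labels give both samples of a pair 1 efficiency. Deviations from group means correlated at 0.283 to 0.883 within the 6 pairs. Comparisons with time used 4 groups without a block. The fit was tested on simulated counts. Intervals are exact binomial ones at 95% and, like each count's precision, cover counting error only. Alternatives were DESeq2 1.42.0, limma 3.58.1 (log2 of value + 1), other scalings, filters, blocks and left-out replicates. Figures used matplotlib 3.10.9.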

Additional observations from a re-analysis of the deposited data

How the results depend on the processing

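For the members, the log2 ratio of FGF1 at 48 h stayed above 0 in every setting run, from 0.26 without replicate 1 at 48 h to 1.26 after the study's correction for transfection efficiency. That correction divides the ratios of genes higher on average by the efficiency and multiplies those of genes lower on average by it, sparing averages close to 1, so by construction it moves the mean ratio of such genes away from 1. It gave FGF2 -0.56 at 24 h in place of -0.06, and -0.90 at 48 h in place of -0.04, where 2 of 3 measured ratios had been above 1. FGF2 at 24 h was -0.094 with TMM and -0.10 with DESeq2 size factors. With positive control scaling, FGF1 gave 0.077 at 24 h, 0.71 at 48 h, and -1.73 (control) and -1.09 (miR-25) with time, and FGF2 gave 0.035, 0.28, -0.68 and -0.44.

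The number of genes called for miR-25 at 24 h was 0, and 3 when only samples of that time were fitted. Leaving out replicates gave 0 to 3 at 24 h (3 without 48 h replicate 1) and 0 to 2 at 48 h (0 without 24 h replicate 3). At 48 h it was 1, against 2 with DESeq2 size factors in edgeR, 2 by DESeq2, 3 without a filter, 3 with only samples of that time, 0 without the replicate block and 61 (all higher) with positive control scaling. In controls with time it was 10, against 17 with TMM, 19 with DESeq2 size factors in edgeR, 18 with reference genes, 62 (all lower) with positive controls and 30 by DESeq2, and 5 to 64 when replicates were left out (64 without 48 h replicate 1). In miR-25 samples with time it was 17, against 34 by DESeq2 and 10 with only those samples, and 4 to 64 when replicates were left out (64 without 48 h replicate 1). Replicate numbers did not pair samples across time (correlations of -0.0958 to 0.0565), and with the replicate block these counts were 33 and 36.

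Of the other listed genes' values, 374 kept direction and side of the threshold, 45 passed it newly, 14 no longer passed and 15 changed sign, all of these from log2 fold changes that had not passed. At 24 h CDH2 turned to -0.030 (TMM), -0.037 (DESeq2 size factors) and -0.0065 (reference genes), and ran from -0.023 to 0.029 without each replicate. Without each replicate, at 48 h FGFR1 ran from -0.013 (replicate 2) to 0.11, CDH2 from -0.098 to 0.026 (replicate 1) and CCND1 from -0.023 (replicate 1) to 0.062. With positive controls CDH2, JUN and MYC turned to 0.27, 0.22 and 0.26, where the median gene had 0.31. With time and without each replicate, JUN ran from -0.19 to 0.074 (without 48 h replicate 3) in controls and FOSL1 from -0.25 to 0.021 (without 48 h replicate 2) with miR-25. PLAU turned to -0.14 (control) and -0.37 (miR-25) with positive controls, where the median gene had -0.67 and -0.50. Where not given by construction, the cause was not tested. The lower counts at 48 h widen the counting intervals, and 3 replicates limit every comparison.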
